A study of Mus musculus with 8 samples.

Results

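The 36 genes described here encode the enzymes that place acetyl groups on histones, the enzymes that remove them, proteins that read them and the scaffolds that bring the erasing enzymes to chromatin. They were taken by name, as 13 acetyltransferases, 16 deacetylases, 3 bromodomain readers and 4 corepressors, out of 21887 protein-coding genes of the mouse RefSeq table. Each gene was given a window of its span plus 10 kb on both sides in the mm10 build (GRCm38.p6), and H3K27ac peaks that overlapped the window by at least 1 bp were assigned to it.

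Histone H3 acetylated at lysine 27 (H3K27ac) was mapped by chromatin immunoprecipitation and sequencing (ChIP-seq) in mpkCCD clone 11, a cell line from the mouse cortical collecting duct. Cells of passages 6 to 10 had been grown to confluence on permeable supports and kept for 24 h without serum and hormones. They then received 0.1 nM dDAVP, an analogue of vasopressin selective for the V2 receptor, or vehicle alone for 24 h. The labels give 2 experiments, each with 1 immunoprecipitated and 1 input library per treatment, and do not say how separate the experiments were. All groups share the 1 clone and the medium without serum or hormones. The designed question was where the mark changes after vasopressin signalling.

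An acetyl group on a lysine of a histone tail takes away its charge and forms a docking site for bromodomains. Crebbp and Ep300, paired acetyltransferases that bind the cAMP-activated factor CREB among many others, make H3K27ac itself, and deacetylases of the NuRD, Sin3, CoREST and NCoR complexes remove it. In the collecting duct, vasopressin acts through cAMP and protein kinase A on the water channel gene Aqp2, and the balance of these enzymes sets how much of the mark a region carries.

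A set of 4 peak lists was compared, 1 per immunoprecipitated library. Kept tags lay between 27923780 and 32705755 per library, but the lists held 37235 peaks for dDAVP and 39745 for vehicle in experiment 1, and 20124 and 29597 in experiment 2. Up to 104 Mb were covered in experiment 1, but in experiment 2 only 33.5 Mb by the dDAVP list and 56.9 Mb by the vehicle list, so the dDAVP list of experiment 2 stands apart as the shortest. The share of redundant tags was highest in that library too, at 0.18 against 0.08 to 0.13 in the others, and its part in the values below was not tested. Comparisons in the full lists are therefore given within an experiment, with the main counts and medians beside the same value over all protein-coding genes. A start site was called when a peak lay within 1 kb of it, and the start sites of all 10 principal cell and collecting duct markers, Aqp2, Avpr2 and Gata3 among them, were called in all 4 lists. The same held for 1 of 4 proximal tubule markers (Lrp2), 1 of 4 intercalated cell markers (Atp6v1b1), 0 of 3 thick limb and distal tubule markers, 0 of 3 fibroblast markers and 0 of 4 leukocyte and endothelial markers.

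With 2 lists against 2, an exact permutation test over the samples cannot go below p = 0.33, or 0.5 within pairs, so no difference between dDAVP and vehicle below was tested. The counts and values describe these 4 lists.

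H3K27ac peaks were found in the windows of 36 of the 36 genes in both lists of experiment 1 and in vehicle of experiment 2, and of 32 in dDAVP of experiment 2. None of the 36 lacked a peak in every list, where 32.8% of all genes did. Over all protein-coding genes the shares were 65.0% and 65.9% for dDAVP and vehicle of experiment 1, and 57.7% and 63.3% for experiment 2. A peak in all 4 lists was found for 32 of the 36 (88.9%) against 57.4% of all genes. By class these were 12 of 13 acetyltransferases, 13 of 16 deacetylases, 3 of 3 readers and 4 of 4 corepressors. The windows of these genes were longer, with a median of 56664 bp against 37168 bp over all genes, and 27 of the 36 held another protein-coding gene, so a peak in a window is not always the peak of its gene. Start sites do not depend on window length, but a gene counted as called when any of its start sites was. The tabled start sites were 45 for 30 of these genes and 21263 for 17492 of all genes. Without a tabled start site, as for 6 of the 36 and 4395 of all genes, either gene end counted. Each list of experiment 1 called start sites for 35 genes (53.2% of all genes for dDAVP, 53.8% for vehicle), and the lists of experiment 2 for 31 (46.0%) and 34 (51.0%). All 4 lists called 31 of the 36 (86.1%) against 45.9% of all genes.

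The highest fold in these windows had a higher median rank than over all genes in each list. Fold enrichment here is the authors' ratio of a peak's signal to its local background, and it was ranked only within its own list. The highest fold in a window had a median percentile of 89.8 for dDAVP and 89.9 for vehicle in experiment 1, and of 86.0 and 84.9 in experiment 2. Over all genes with a peak the medians were 86.3, 86.9, 75.8 and 81.7. A percentile above 90 in all 4 lists was reached by 8 of the 36 genes (22.2%), against 10.0% of all genes. The highest fold is taken over the whole window, so it can belong to a neighbour. At Crebbp in dDAVP of experiment 1 it was 11.1, in a peak at the neighbour Trap1, against 5.81 at the start site. These windows were also longer than those of all genes, and the part of window length in the ranks was not tested.

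With dDAVP, 18 of the 32 genes covered in all 4 lists had less covered length, that is fewer bases of the window under peaks, in both experiments (56.2%, against 51.4% of all such genes). None of the 32 had more in both, where 2.84% of all genes did, and in 14 the directions differed (45.8% of all genes). In experiment 1 the genes were split, with 19 covering less and 13 more (53.3% of all genes covered less). In experiment 2, 31 of 32 covered less (95.2% of all genes). These shares lie near those of all genes, so they are no result about the histone acetylation genes. The medians were close as well, with a log2 ratio of dDAVP over vehicle of -0.02 in experiment 1 (-0.02 over all genes) and -0.42 in experiment 2 (-0.49 over all genes). For medians and percentiles of these ratios, here and below, all genes means those covered in both lists of the experiment. They were 14059 genes in experiment 1 and 12599 in experiment 2. The sign of the first median was not stable, since it ran from -0.08 to 0.07 over the alternatives listed at the end, while that of the second stayed negative.

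**Figure D1:**
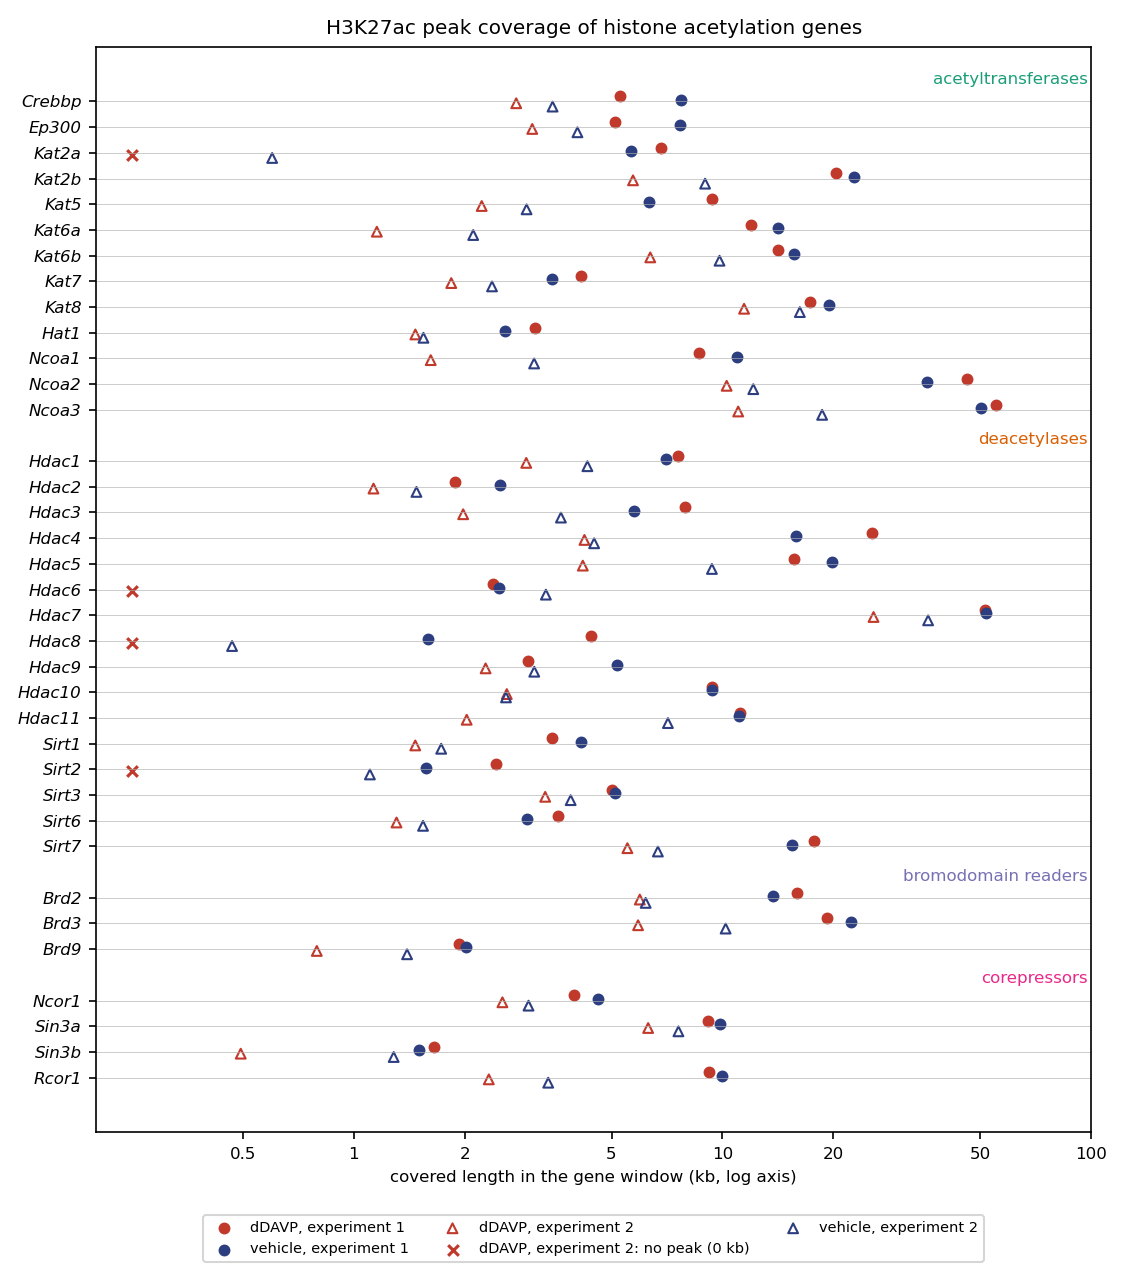
Covered length in the window of each of the 36 genes (kb, log axis), with 1 symbol per peak list, red for dDAVP and blue for vehicle, filled circles for experiment 1 and open triangles for experiment 2. Crosses at the left edge mark the 4 genes with no peak in dDAVP of experiment 2, and the triangles lie left of the circles for 34 of the 36 genes.

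In the covered length of these windows the experiments differed more than the treatments. Both lists of experiment 2 covered less of the window than both lists of experiment 1 in 34 of the 36 genes, Hdac6 and Hdac9 being the others. No share of all genes was computed for this order between the experiments. Over the genome, too, both lists of experiment 2 covered fewer bases than both lists of experiment 1. The count of 34 is therefore no result about the histone acetylation genes. Both dDAVP lists covered less than both vehicle lists in 2 genes, again Hdac6 and Hdac9. Of these only Hdac9 was covered in all 4 lists, and 5.66% of all genes so covered showed that order.

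Crebbp and Ep300 carried H3K27ac at their start sites in all 4 lists. The 250 bases before each start site, from RefSeq (GRCm38.p6), are shown because both lie in dense runs of CG, and the capitals mark every CG dinucleotide.
Ep300 (chr15:81585964-81586213, plus strand): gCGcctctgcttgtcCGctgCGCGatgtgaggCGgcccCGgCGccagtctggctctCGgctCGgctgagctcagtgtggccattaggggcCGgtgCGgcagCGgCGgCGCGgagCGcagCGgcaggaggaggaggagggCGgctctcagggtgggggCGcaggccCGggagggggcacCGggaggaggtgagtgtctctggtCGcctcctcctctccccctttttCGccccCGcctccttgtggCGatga
Crebbp (chr16:4213405-4213654, minus strand): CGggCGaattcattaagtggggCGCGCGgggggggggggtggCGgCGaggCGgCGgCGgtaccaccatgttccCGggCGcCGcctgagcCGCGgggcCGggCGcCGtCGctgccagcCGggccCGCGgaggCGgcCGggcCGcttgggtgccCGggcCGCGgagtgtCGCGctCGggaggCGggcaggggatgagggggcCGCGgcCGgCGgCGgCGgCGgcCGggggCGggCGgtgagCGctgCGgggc
The peak at the Ep300 start site was 5124 bp wide with dDAVP and 4768 bp with vehicle in experiment 1, and 3047 and 4041 bp in experiment 2. Its fold was 12.0, 12.9, 10.8 and 12.8 in the same order, at percentiles of 99.2 to 99.8 of the lists. The peak at the Crebbp start site was 3314, 2784, 1669 and 2148 bp wide, and its fold was 5.81, 6.17, 3.34 and 4.50, at percentiles of 32.1 to 83.7. At both genes the start-site peak was thus wider with dDAVP in experiment 1 and narrower in experiment 2, and Ep300 ranked above Crebbp in each list.

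Over the whole window, Ep300 (chr15:81586209-81652077) had 5124 and 7649 bp covered in experiment 1 and 3047 and 4041 bp in experiment 2, dDAVP before vehicle. The log2 ratios of -0.58 and -0.41 gave a mean of -0.49 ± 0.12 (SD, n = 2), and this mean was nearer 0 under several alternatives. It was -0.15 in lists of equal length, meaning each list shortened to the number of peaks of the shortest. The same value was found in lists of equal covered bases, with a -log10 q of at least 5 and with a fold of at least 5. With lengths made equal only between the treatments of an experiment it was -0.39, and in the gene span with no flank -0.77. In experiment 1 the shortfall came from a pair of gene body peaks, of 986 and 1895 bp with fold 2.20 and 2.42, that were called in vehicle alone. Crebbp (chr16:4081334-4213957) had 5270, 7742, 2757 and 3460 bp, with log2 ratios of -0.55 and -0.33 (mean -0.44 ± 0.16, SD, n = 2). With a -log10 q of at least 5 the mean was lower still, at -1 on the log2 scale. Its window reaches into the mitochondrial chaperone gene Trap1, where a peak of 1956 bp with dDAVP and 3831 bp with vehicle in experiment 1 made most of that difference. For both acetyltransferases of H3K27, less covered length in experiment 1 was therefore found away from the start site.

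Among the other acetyltransferases, Kat5 and Hat1 had peaks of high fold. Kat5, the catalytic subunit of the NuA4 complex (chr19:5603014-5611556), had a fold at its start sites of 11.1, 12.1, 11.2 and 15.4, at percentiles of 99.2 to 99.9. Its covered length was 9343 bp with dDAVP and 6320 bp with vehicle in experiment 1, and 2222 and 2941 bp in experiment 2. The log2 ratios of 0.56 and -0.40 have opposite signs. Hat1, which acetylates newly made histone H4 (chr2:71389260-71441622), covered 3102, 2578, 1468 and 1544 bp, with log2 ratios of 0.27 and -0.07. Both percentiles of these ratios among all genes were high, 83.6 in experiment 1 and 91.5 in experiment 2, although dDAVP covered less than vehicle in the second.

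The p160 coactivators Ncoa1, Ncoa2 and Ncoa3, which bind nuclear hormone receptors, differed widely in coverage. Ncoa3 (chr2:165992637-166073242) had the most covered length of any acetyltransferase by the mean of the 4 lists, with 55230 and 50161 bp in experiment 1 and 11034 and 18642 bp in experiment 2, dDAVP before vehicle. In dDAVP of experiment 2 Kat8, with 11447 bp, covered more. The log2 ratios of Ncoa3, 0.14 and -0.76, have opposite signs. Their mean of -0.31 turned to 0.10 in lists of equal length and to 0.48 in lists of equal covered bases. A merged region of 27987 bp within the gene body held peaks of all 4 lists. They covered 27987 and 24570 bp of it in experiment 1, dDAVP before vehicle. In experiment 2, 4 separate peaks per list covered 5916 and 10446 bp. Ncoa2 covered 46113, 35972, 10266 and 12125 bp over 16 regions, of which 3 were in all 4 lists. Ncoa1 (chr12:4247362-4477206) covered 8622, 10937, 1616 and 3083 bp, with log2 ratios of -0.34 and -0.93, and both its percentiles among all genes were low, 16.6 and 23.3. At its start site the peaks of experiment 2 were nearly equal, 1616 and 1624 bp, and the difference there lay in 2 gene body peaks called in vehicle but not in dDAVP. In lists of equal length the mean log2 ratio of Ncoa1 was 0.18, on the other side of 0. With lengths made equal only between treatments it was -0.21, and with a -log10 q of at least 5 it was -0.10.

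Kat6a, the MOZ acetyltransferase (chr8:22859442-22943259), covered 11964, 14144, 1154 and 2107 bp, and its log2 ratios of -0.24 and -0.87 were also both in the lower part of all genes (percentiles 23.7 and 26.1). In experiment 2 both treatments had only 1 peak in the window, at the gene end, of 1154 bp with dDAVP and 2107 bp with vehicle. Kat2b and Kat6b covered less with dDAVP in both experiments, with mean log2 ratios of -0.41 ± 0.34 and -0.39 ± 0.34 (SD, n = 2). Kat7 and Ncoa2 had opposite signs. Kat8, which acetylates lysine 16 of histone H4, had a mean of -0.34 ± 0.24, but most of its covered length lay in a region of 16102 bp (chr7:127920315-127936416) that extends over Prss36 and Prss8. Prss8 encodes prostasin, a protease that activates the epithelial sodium channel. The coverage of the Kat8 window is therefore largely that of its neighbours, and the peak at the Kat8 start site itself was 1983, 2053, 1638 and 1773 bp wide.

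Kat2a, the GCN5 acetyltransferase of the SAGA and ATAC complexes, and the deacetylase genes Hdac6, Hdac8 and Sirt2 had a peak in every list but dDAVP of experiment 2, a pattern of 4.74% of all genes. Kat2a (chr11:100704746-100712485) covered 6809, 5646, 0 and 600 bp, and the 600 bp lay at the neighbour Rab5c. That region was called in all 4 lists, but its peak of 631 bp in dDAVP of experiment 2 lay beyond the window edge. The 0 against 600 bp thus depends on where the window ends. The start site of Kat2a itself was called in experiment 1 only. Hdac6, a cytoplasmic deacetylase of tubulin (chrX:7930116-7948047), covered 2380, 2483, 0 and 3318 bp. Sirt2, another tubulin deacetylase (chr7:28766752-28788665), covered 2437, 1567, 0 and 1105 bp. For the latter pair all vehicle lists had a peak at the start site, and its fold of 3.61 to 4.06 lay at percentiles of 51.4 to 66.2. No fold change was computed against the list at 0.

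Hdac8, a class I deacetylase on the X chromosome (chrX:102284638-102505381), covered 4400, 1591, 0 and 467 bp. Its log2 ratio of 1.47 in experiment 1 was at percentile 99.6 of the genes covered in both lists there. In experiment 2 the direction was opposite, with no peak under dDAVP. The experiment 1 difference came from gene body peaks of 2487 bp (539 bp with vehicle) and 1251 bp (none with vehicle), while at the start site dDAVP had 662 bp and vehicle 1052 bp. Its sequence before the start site is shown with that of Sirt2, since neither start site had a peak in dDAVP of experiment 2, and CG dinucleotides are again in capitals.
Hdac8 (chrX:102505159-102505408, minus strand): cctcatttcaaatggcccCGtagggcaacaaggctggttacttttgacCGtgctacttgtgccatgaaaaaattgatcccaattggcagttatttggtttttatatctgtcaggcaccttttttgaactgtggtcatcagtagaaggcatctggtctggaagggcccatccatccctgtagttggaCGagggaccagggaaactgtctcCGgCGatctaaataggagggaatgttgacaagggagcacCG
Sirt2 (chr7:28766502-28766751, plus strand): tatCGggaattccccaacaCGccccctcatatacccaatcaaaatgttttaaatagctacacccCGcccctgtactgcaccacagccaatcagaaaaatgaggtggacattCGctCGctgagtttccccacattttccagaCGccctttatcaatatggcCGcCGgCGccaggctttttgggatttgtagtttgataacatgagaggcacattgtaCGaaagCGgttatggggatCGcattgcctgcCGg
Hdac8 has 6 and Sirt2 13 CG dinucleotides in these 250 bases, against 25 for Ep300 and 44 for Crebbp. CpG ratio is the observed number of CG dinucleotides over the number the base composition would give, here in the 250 bases before and 50 after a start site. It was 0.33 for Hdac8, 0.87 for Sirt2, 0.86 for Kat2a and 0.82 for Hdac6, against 0.80 for Ep300 and 1.02 for Crebbp. Of the 4 genes with no peak in dDAVP of experiment 2, Hdac8 alone thus had a ratio below that of Ep300.

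The class I deacetylases Hdac1, Hdac2 and Hdac3 were called at their start sites or gene ends in all 4 lists. Hdac2 (chr10:36974297-37001889) had the highest mean percentile of fold among the deacetylases, with a fold of 8.28, 8.65, 9.80 and 11.8. It covered 1884, 2490, 1130 and 1478 bp, with log2 ratios of -0.40 and -0.39 (mean -0.39 ± 0.01, SD, n = 2), but the mean was -0.21 in lists of equal length, -0.39 with lengths made equal only between treatments, and -0.59 in the gene span with no flank. Hdac1 covered 7567, 7021, 2935 and 4301 bp and Hdac3, the partner of NCoR, 7897, 5760, 1979 and 3645 bp. Both covered more with dDAVP in experiment 1 and less in experiment 2, and at Hdac3 most of the covered length lay in Diaph1.

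Class IIa deacetylases shuttle between nucleus and cytoplasm under the control of phosphorylation. Hdac5, Hdac7 and Hdac9 covered less with dDAVP in both experiments, and Hdac4 in experiment 2 only. Hdac4 (chr1:91928779-92195702) covered 25466 bp with dDAVP and 15877 bp with vehicle in experiment 1, and 4222 and 4486 bp in experiment 2. The log2 ratios were 0.68 and -0.09, at percentiles 96.6 and 90.2 of all genes, so that Hdac4 had the highest smaller percentile of the 32 genes. At its start site the lists hardly differed within an experiment, with 3495 and 3515 bp in experiment 1 and 2352 and 2335 bp in experiment 2.

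The difference at Hdac4 lay inside the gene. Its largest part in experiment 1 was a region (chr1:91999358-92006867) covered over 7450 bp with dDAVP and 4560 bp with vehicle, which in experiment 2 had 0 and 1090 bp and so went the other way. A region of experiment 1 alone (chr1:92083347-92087154) had 3530 and 1089 bp. More coverage with dDAVP in both experiments was found at 2 regions. One, 64868 bp from the start site (chr1:92112272-92115473), was covered over 3202 and 1524 bp in experiment 1 and 1199 and 737 bp in experiment 2, dDAVP before vehicle. The other, 48588 bp from the start site (chr1:92129384-92131753), was covered over 2370 and 974 bp and 671 and 324 bp. The ratios of dDAVP to vehicle lay between 1.63 and 2.43. These regions were picked after their values were seen, and the low fold of both, 2.46 to 4.14, puts their edges near the calling limit. In lists of equal length the first was not called in vehicle of experiment 2, with 3202, 1524, 1199 and 0 bp, and the second was called in dDAVP of experiment 2 alone.

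Among the regions called in all 4 lists, 4 of 59 in the windows of these genes were covered more with dDAVP in both experiments (6.78%, against 4.78% of all 16537 such regions). Besides the Hdac4 regions these were a gene body region of Ncoa2 and the start site of Hdac5. A further 26 were covered less in both (44.1%, against 51.3% of all). The share with more coverage was thus near that of the whole series.

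Hdac5 (chr11:102195747-102230172) covered 15664, 19846, 4179 and 9363 bp, with log2 ratios of -0.34 and -1.16 (mean -0.75 ± 0.58, SD, n = 2). Both ratios lay at low percentiles of all genes, 16.7 and 15.0, the lowest such pair of the 32. The start-site peak went the other way, with 1518 and 1342 bp in experiment 1 and 1273 and 1116 bp in experiment 2, dDAVP before vehicle. The deficit was in a gene body region of 13482 bp, covered over 9828, 13482, 1997 and 6414 bp. In lists of equal covered bases the mean log2 ratio of Hdac5 was 0.61, so its direction turned there, and with a -log10 q of at least 5 it was -2.79.

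Hdac7 (chr15:97792661-97844502) had the most covered length of the deacetylases, 51435, 51912, 25703 and 36146 bp. In experiment 1 a single peak of 35313 bp with dDAVP and 34573 bp with vehicle ran through the gene, whereas in experiment 2 it was broken into shorter peaks, of 5302 bp with dDAVP and 12929 bp with vehicle at the central start site. A second region, of 32569 bp when counted whole, lay over its neighbour Slc48a1 and the end of Hdac7, and only part of it was inside the window. The log2 ratios of -0.01 and -0.49 were at the middle of all genes (percentiles 51.8 and 49.5), and the mean log2 ratio was 0.16 in lists of equal covered bases, where the sign turned.

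Hdac9 (chr12:34047580-34917095) was the only 1 of the 36 genes with no start-site call in any list, although all 4 lists had a peak near the far end of this gene of 869516 bp. It covered 2975, 5170, 2277 and 3086 bp, with log2 ratios of -0.80 and -0.44 (mean -0.62 ± 0.25, SD, n = 2), and the mean was -0.25 in lists of equal length, or -0.32 with lengths made equal only between treatments. One region inside it (chr12:34164393-34165557) had a peak with vehicle in both experiments and none with dDAVP (a vehicle-only region), with fold 2.30 and 2.57, at percentiles 5.32 and 13. It was the only region called by treatment in the windows of the 36 genes, out of 160 regions. No region there was called in both dDAVP lists alone (dDAVP-only). Over the series these patterns made up 2.51% and 0.0635% of 45705 regions, and in lists of equal length the windows held no vehicle-only region.

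**Figure D2:**
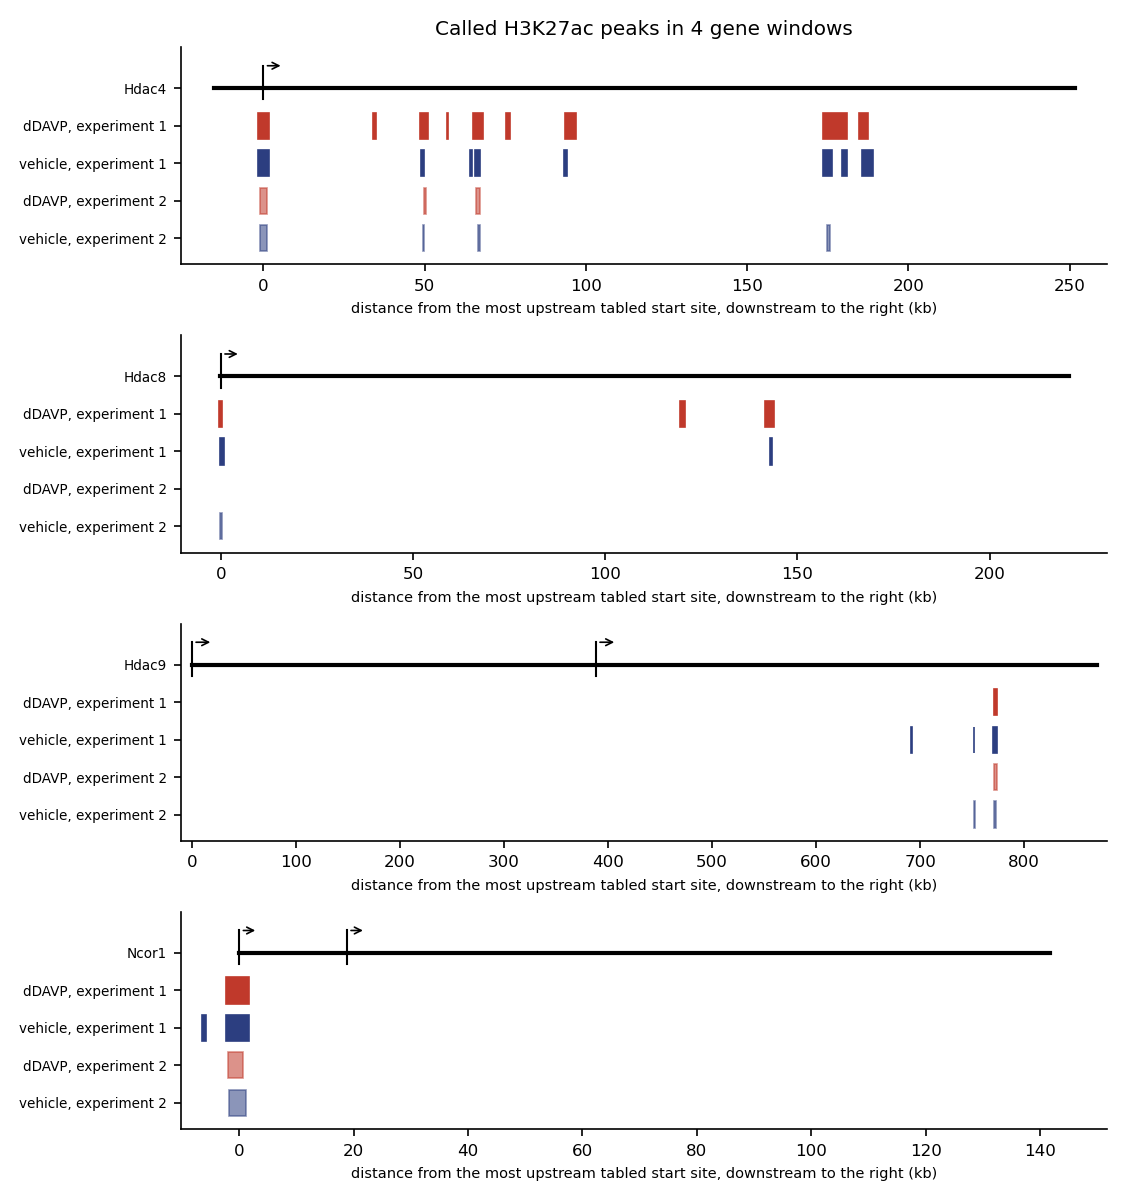
Peaks in the windows of Hdac4, Hdac8, Hdac9 and Ncor1 by distance from the most upstream tabled start site (kb), with the gene as a black line, start sites as arrows and 1 row of boxes per list (red dDAVP, blue vehicle, paler for experiment 2). Hdac4 shows gene body peaks, some wider with dDAVP and others wider with vehicle or called there alone. Hdac8 shows no peak in dDAVP of experiment 2, Hdac9 no peak at its start sites, and Ncor1 peaks at 1 of its 2 start sites.

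The remaining deacetylases were Hdac10, Hdac11 and the sirtuins, which use NAD. Hdac10 covered 9343, 9390, 2599 and 2586 bp and was the 1 gene of 32 with more covered length under dDAVP in experiment 2, by 13 bp. Hdac11 (chr6:91156670-91174692), the class IV deacetylase, covered 11179 and 11117 bp in experiment 1 and 2023 and 7113 bp in experiment 2. Its log2 ratios were 0.01 and -1.81, at percentiles 55.3 and 4.83, the largest gap between the experiments among the 32 (mean -0.90 ± 1.29, SD, n = 2).

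Of the sirtuins, Sirt6 (chr10:81621787-81627792), a nuclear deacetylase of histone H3, covered 3582, 2954, 1305 and 1540 bp. Its ratios stood at percentiles 84.3 and 75.0 of all genes, and its start-site fold was 9.61, 11.6, 6.71 and 9.21. Sirt7 and Sirt6 covered more with dDAVP in experiment 1 and less in experiment 2. Sirt1 and the mitochondrial Sirt3 covered less in both, with mean log2 ratios of -0.25 ± 0.02 and -0.13 ± 0.14 (SD, n = 2). All of these 4 sirtuin genes were called at the start site in all 4 lists.

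Brd2 and Brd3 are readers of the BET family, and Brd9 belongs to a chromatin remodelling complex. Brd2 (chr17:34112019-34122814) had some of the highest folds of the genes, 10.3, 12.3, 13.5 and 16.7, at percentiles of 98.7 to 100.0. It covered 15981, 13733, 5967 and 6190 bp, with log2 ratios of 0.22 and -0.05 at percentiles 80.0 and 92.6, and a mean of 0.08 that was 0.32 in lists of equal length. Brd3 (chr2:27445576-27507657) covered 19258, 22373, 5903 and 10201 bp, with log2 ratios of -0.22 and -0.79 at percentiles 25.9 and 29.9, and a mean that went from -0.50 to -1.22 in lists of equal covered bases. These BET genes thus lay on opposite sides of the median of all genes in both experiments, a difference that was not tested. Brd9 covered 1926, 2010, 793 and 1394 bp, less with dDAVP in both experiments.

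All 4 corepressor genes were called at the start site in all 4 lists. Sin3a (chr9:57071991-57128368), the scaffold of the Sin3 complex, covered 9111, 9834, 6286 and 7596 bp, with log2 ratios of -0.11 and -0.27. Its relative Sin3b covered 1651, 1500, 493 and 1282 bp, with log2 ratios of 0.14 and -1.38, so that dDAVP of experiment 2 was the low list. Rcor1, the CoREST scaffold, covered 9209, 9960, 2323 and 3367 bp.

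Ncor1 (chr11:62315663-62457414) has 2 tabled start sites 18817 bp apart. The upstream one was called in all 4 lists, with fold 9.20, 10.6, 5.74 and 8.31, and the downstream one in none. Both sequences are shown because they differ so plainly in CG content, again in capitals. The called start site is the first, with 34 CG dinucleotides, and the uncalled one the second, with 2.
Ncor1 (chr11:62457333-62457582, minus strand): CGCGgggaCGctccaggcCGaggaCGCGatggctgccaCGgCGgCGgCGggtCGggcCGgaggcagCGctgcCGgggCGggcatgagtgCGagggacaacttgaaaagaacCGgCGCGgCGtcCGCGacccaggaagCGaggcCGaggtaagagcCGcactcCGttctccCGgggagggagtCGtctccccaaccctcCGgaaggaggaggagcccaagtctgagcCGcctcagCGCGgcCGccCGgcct
Ncor1 (chr11:62438516-62438765, minus strand): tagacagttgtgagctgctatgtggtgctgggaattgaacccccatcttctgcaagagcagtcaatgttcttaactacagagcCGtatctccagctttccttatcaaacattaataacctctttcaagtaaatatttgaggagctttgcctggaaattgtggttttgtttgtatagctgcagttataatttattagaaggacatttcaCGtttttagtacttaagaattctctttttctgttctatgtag
The start sites of Hdac9, neither of them called, resemble the second, with 2 and 0 CG dinucleotides.
Hdac9 (chr12:34528890-34529139, minus strand): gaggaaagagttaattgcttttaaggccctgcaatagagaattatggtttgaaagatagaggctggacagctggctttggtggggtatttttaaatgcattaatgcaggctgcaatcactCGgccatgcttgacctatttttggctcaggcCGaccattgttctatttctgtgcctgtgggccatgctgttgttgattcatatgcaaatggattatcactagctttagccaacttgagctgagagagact
Hdac9 (chr12:34917096-34917345, minus strand): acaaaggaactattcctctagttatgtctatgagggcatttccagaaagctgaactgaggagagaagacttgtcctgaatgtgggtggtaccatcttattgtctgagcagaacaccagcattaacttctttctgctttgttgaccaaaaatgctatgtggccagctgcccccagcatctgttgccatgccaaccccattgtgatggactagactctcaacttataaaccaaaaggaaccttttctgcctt

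Over all genes too, start sites with a higher CpG ratio were called more often. The RefSeq table held 45 start sites of 30 of the genes, and their median CpG ratio was 0.81 against 0.57 for 21263 start sites of all genes. A ratio of at least 0.6 was found at 35 of 45 (77.8%) against 47.7%. Of the 45, 37 were called in all 4 lists (82.2%, against 46.0% of all). In 5 bins of rising CpG ratio, 5.52%, 16.9%, 43.0%, 67.0% and 82.6% of all start sites were called in all 4 lists. Those of the histone acetylation genes were called in 1 of 3, 2 of 5, 2 of 2, 12 of 12 and 20 of 23 cases, a higher share in each bin. These are small counts, start sites of 1 gene share peaks, and the part of CpG content in the high share of called start sites was not tested.

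**Figure D3:**
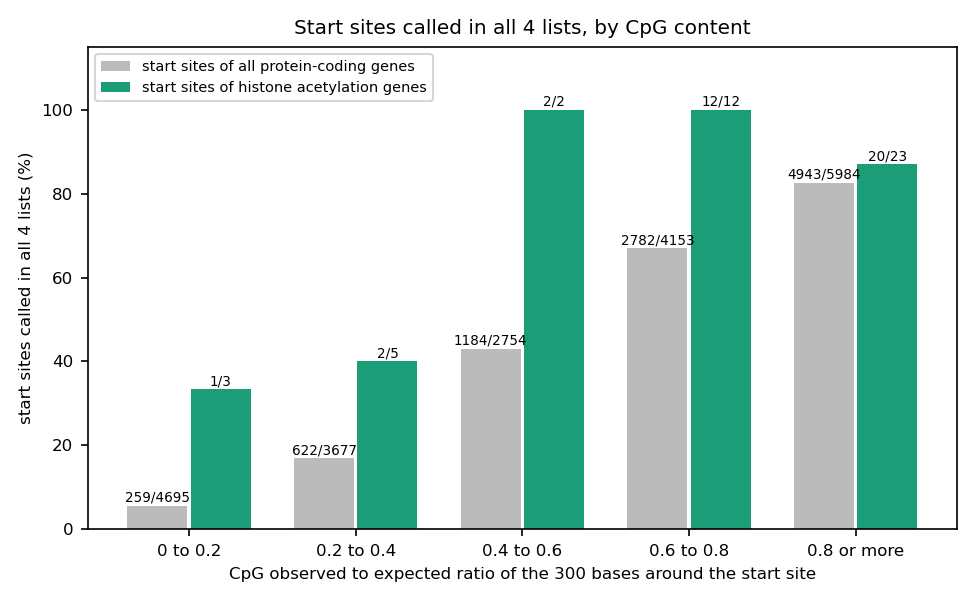
Share of start sites called in all 4 lists (%), by CpG observed to expected ratio, for all protein-coding genes (grey) and for the histone acetylation genes (green). Numbers over the bars are start sites called over start sites in the bin, and the grey bars run from 5.52% to 82.6%.

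The cAMP response element, the site of CREB, which reads TGACG followed directly by TCA, was searched in the same 300 bases on both strands. It was in 0 of the 45 sequences, against 2.23% of all start sites. Its core TGACG, or CGTCA on the other strand, which the full element also contains, was in 16 of 45 (35.6%) against 23.6% of all. Ep300 and Crebbp held neither, and Kat5, Kat7, Hdac4, Hdac5 and Sin3a held the core. No match says only that these letters are not in this window.

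Covered length was also split by place. Within 1 kb of a start site, the covered length summed over the 36 genes was 79.0 kb with dDAVP and 79.4 kb with vehicle in experiment 1, and 54.9 and 65.6 kb in experiment 2. The ratios were 0.995 and 0.836, against 0.986 and 0.788 over all genes. In the rest of the windows it was 362 and 349 kb, and 87.0 and 144 kb, with ratios of 1.04 and 0.603 against 0.975 and 0.586 over all genes. The start zone ends 1 kb from a start site and is filled in every list at genes such as Ep300, so its sums cannot show how far peaks widened, and the places are not compared. All sums are over regions called separately in each list and follow how much was called in it.

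By class, the ratio at start sites in experiment 1 was 1.000 for acetyltransferases, 0.983 for deacetylases, 1.01 for readers and 1.01 for corepressors. In experiment 2 it was 0.949, 0.745, 0.884 and 0.785 in the same order. In the rest of the windows it was 1.03, 1.09, 0.966 and 0.873 in experiment 1, and 0.596, 0.605, 0.568 and 0.732 in experiment 2. The deacetylase value at start sites in experiment 2 includes Hdac6, Hdac8 and Sirt2, whose start sites had no peak with dDAVP there.

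**Figure D4:**
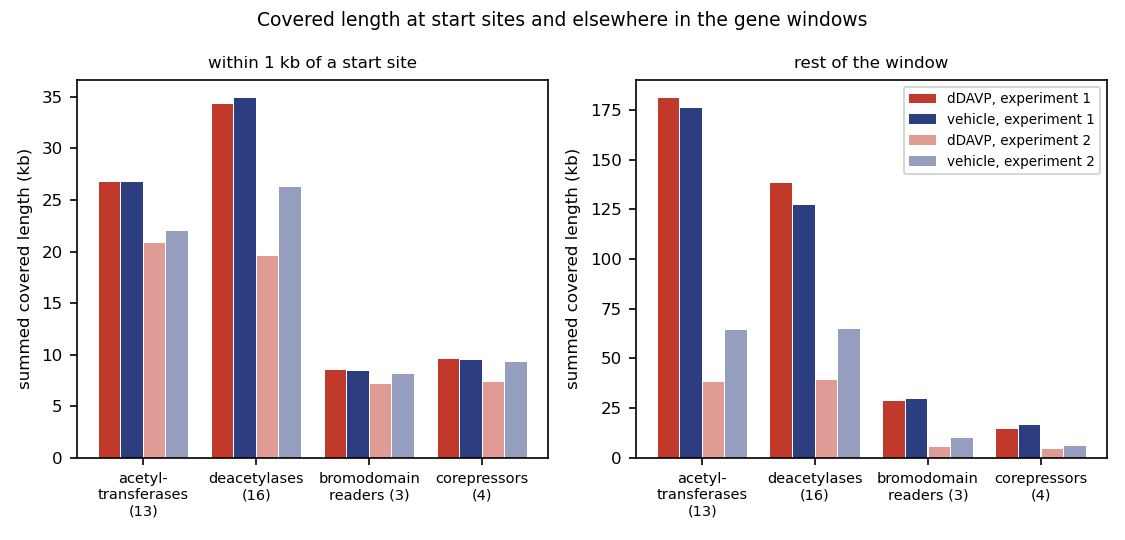
Covered length (kb) summed over the genes of each class, within 1 kb of a start site (left) and in the rest of the windows (right), for the 4 peak lists; the number of genes stands under each class. The start-site bars are limited by the fixed zone, and the bars of the rest of the windows, summed over all classes, were 362 and 349 kb in experiment 1 and 87.0 and 144 kb in experiment 2.

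Single regions were counted by how many lists called them, here by the start sites of all genes. In the windows, 45 of 55 regions at a start site were in all 4 lists (81.8%), against 81.7% of such regions in the series. Away from start sites 14 of 105 were (13.3%), against 21.5% in the series. Together 59 of 160 were in all 4 lists (36.9%, against 36.2% of all regions of the series). The division between start sites and other places is thus one of the whole series.

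Peaks with no counterpart under the other treatment were found in both directions in experiment 1. There 26 of 134 dDAVP peaks in the windows had no vehicle peak (19.4%, against 15.5% of all dDAVP peaks), and 27 of 143 vehicle peaks had no dDAVP peak (18.9%, against 21.1%). In experiment 2 these were 1 of 76 dDAVP peaks (1.32%, against 2.30%) and 25 of 95 vehicle peaks (26.3%, against 37.1%). The imbalance of experiment 2 was thus found over the whole series, whose lists there hold 20124 and 29597 peaks.

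Fold percentiles gave a similar picture. Of the 32 genes covered in all 4 lists, 18 had a lower highest percentile with dDAVP in experiment 1 (57.4% of all genes) and 24 in experiment 2 (80.8%). A count of 13 had a lower highest percentile in both experiments (47.3% of all genes did) and 3 a higher one (9.07%). Those counts turned to 8 and 11 in lists of equal length, where percentiles were ranked anew within the shortened lists. No share of all genes was computed there, and the cause of the turn was not tested.

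Class medians of the log2 ratio, in experiments 1 and 2, were -0.15 and -0.46 for acetyltransferases, 0.00 and -0.39 for deacetylases, -0.06 and -0.79 for readers and -0.11 and -0.40 for corepressors. Less covered length in both experiments was found for 7 of 12, 6 of 13, 2 of 3 and 3 of 4 genes. In every class, genes with opposite signs in the experiments stood beside genes with less coverage in both.

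**Figure D5:**
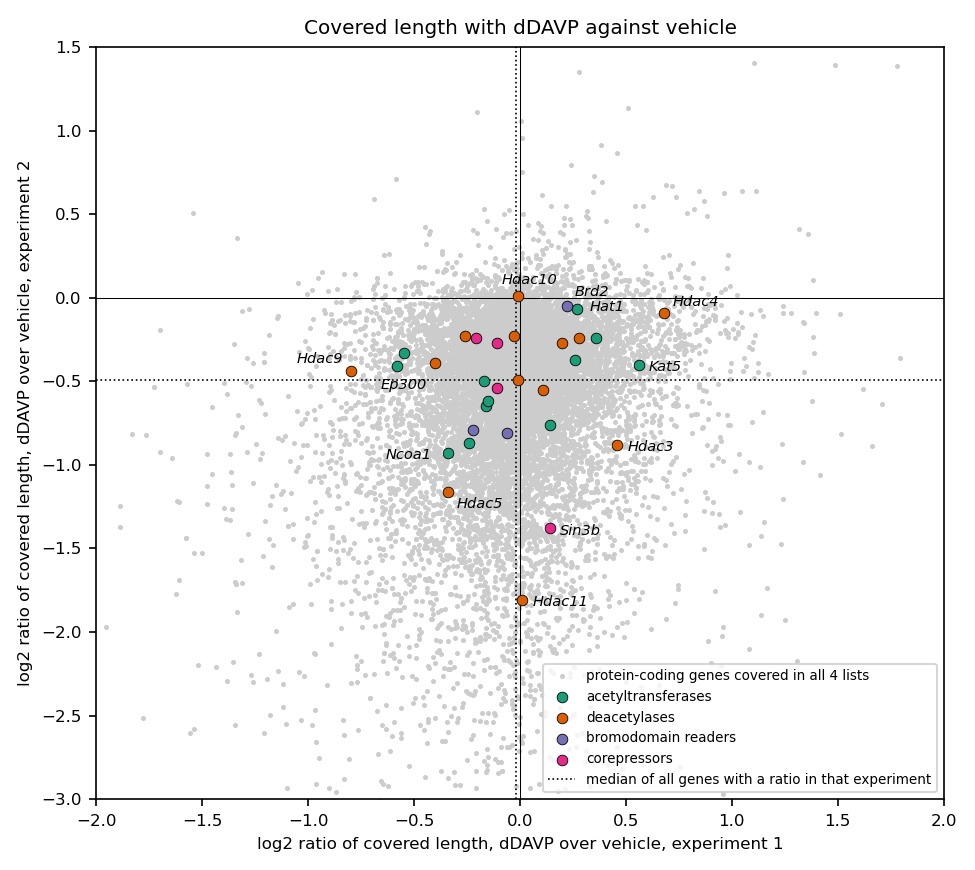
Log2 ratio of covered length, dDAVP over vehicle, in experiment 1 (x axis) and experiment 2 (y axis), for the 32 histone acetylation genes covered in all 4 lists (coloured by class) over all 12558 such genes (grey; genes beyond the axes are not drawn). Dotted lines mark the medians, -0.02 and -0.49, of all genes covered in both lists of that experiment. The coloured points lie within the grey cloud, with Hdac4 to the right and Hdac11 lowest.

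The partners of these enzymes were counted by the same rules, in 5 lists of 96 genes. A peak in all 4 lists was found in the windows of 93 (96.9%, against 57.4% of all genes). At the start sites it was found for 87 (90.6%, against 45.9%). Less covered length with dDAVP in both experiments was found for 38 of 93 (40.9%, against 51.4% of all genes). More was found for 2, Yeats2 and Zzz3, where 2.84% of all genes had more. The counts of less and more in each list below stand beside the same 51.4% and 2.84%. Of 23 partners in the SAGA, ATAC and NuA4 complexes, 11 covered less in both. Yeats2 covered 11960, 9858, 2790 and 2511 bp, and at the other end the SAGA adaptor Tada2b covered 6700, 8809, 766 and 3169 bp.

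In the list of MOZ, HBO1 and MSL partners 6 of 15 covered less in both and 0 more. Ing4, a reader of methylated H3, covered 2395, 1913, 1489 and 1668 bp, and Phf20, of the complex of Kat8, 26403, 32435, 5436 and 9884 bp. Of 26 partners of the deacetylases 11 covered less and 0 more. The histone chaperone gene Rbbp4 covered 5399, 2857, 2056 and 2148 bp, and Sap18, of the Sin3 complex, 7114, 9934, 1286 and 3004 bp.

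Other acetyl-lysine readers gave 6 of 20 with less in both and 0 with more. Phip covered 13753, 10271, 4949 and 5259 bp and the remodelling ATPase gene Smarca2 13003, 14624, 2699 and 7090 bp, while Cecr2 had no peak in any list. Genes that supply acetyl-CoA and NAD gave 4 of 9 with less and 0 with more. Acly, which makes acetyl-CoA from citrate, covered 11440, 9902, 3011 and 3688 bp, and Acss2, which makes it from acetate, 748, 3513, 0 and 1209 bp. Acss2 and Jade3 were the partner genes that, like Kat2a, Hdac6, Hdac8 and Sirt2, had no peak in dDAVP of experiment 2 alone.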

How the data were processed

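ChIP-seq peak lists of 4 immunoprecipitated libraries were used, each called by the authors on 1 library against the input of its treatment and experiment. Per the file headers, MACS 2.1.1.20160309 was run in broad mode with q-value limits of 0.01 and 0.1 and at most 1 tag per position. Per the submitters' processing notes, BWA, SAMtools and the mm10 build were used on the reads. The deposited pileup is a signal, the tag coverage of a peak, and was not used for comparisons. Fold enrichment is the authors' ratio of signal to local background. The names of 2 columns were lost from the deposited files, and their values have the range and order of the caller's -log10 p-value and -log10 q-value. Peak length is a deposited column in bp. The lists were attached to the input records and were assigned to libraries by their headers.

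Peaks on the 19 autosomes, X and Y were kept. Covered bases per window were computed with Python 3.11.15, numpy 2.4.6 and pandas 2.3.3, and the code was tested on simulated data. Start sites came from RefSeq for 30 of the 36 genes, and both gene ends were used for Hdac1, Hdac3, Hdac10, Kat6a, Ncoa2 and Ncoa3. Overlapping peaks of the 4 lists were merged into regions, which were counted whole. Experiment numbers in the titles paired dDAVP with vehicle. The members and lists were chosen with earlier results of these data known. All 36 genes were described by class. By rule, values in all lists were given for genes without a peak in all 4 lists, for the 4 highest and 4 lowest by percentile of their ratios, for the widest and highest-fold gene of each class, for genes with a region called by treatment, and for Crebbp and Ep300. Partner genes were named by the same percentiles. Values of Ncoa2, Kat2b, Kat6b, Kat8, Hdac1, Hdac3, Hdac10, Hdac11, Sirt1, Sirt3, Brd9, Sin3b, Ncor1, Rcor1 and Acss2 and of the Hdac4 regions were added after they were seen. Alternatives were shortened or stricter lists, other windows and overlaps, a pooled comparison without pairing, and each list left out in turn. Depth was read from the headers, and no read counts were used.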

Additional observations from a re-analysis of the deposited data

How the results depend on the processing

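The shortest list, dDAVP of experiment 2, had 20124 peaks from 31676748 kept tags. The list of dDAVP in experiment 1 had 37235 peaks from 27923780. The part of depth in the lengths of the lists was not tested, and values within 1 experiment have no replicate. In lists of equal length 32 genes still had a peak in all 4 lists. More covered length with dDAVP in both experiments was found for 4 genes, a lower fold percentile for 8 and a higher one for 11, with 0 vehicle-only regions. With lengths made equal within each experiment only, these were 3, 8, 11 and 0. In lists of equal covered bases, 24 genes had a peak in all 4 lists and 19 had a start site called in all 4. Of those 24 genes 9 covered less and 3 more in both experiments, 1 had a lower and 14 a higher fold percentile. No vehicle-only region remained. There Hdac5 (0.61) and Hdac7 (0.16) reversed, as did Ncoa1 at equal length (0.18). With a fold of at least 5, 21 genes had a peak and 17 a called start site in all 4 lists. Of the 21, 7 covered less in both experiments, and vehicle-only regions were 0. A -log10 q of at least 5 left 29 genes with a peak in all 4 lists, and gave 2 genes with more and 3 vehicle-only regions. The gene span with no flank gave 1 gene with more coverage and 1 with a higher percentile, a 5 kb flank 2 with more, and a 25 kb flank 2 vehicle-only regions. A list covering 50% of a region left 0. No share over all genes was computed under these alternatives, and the causes were not tested.

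Experiment numbers pair the lists. With no replicate block, 23 genes covered less and 9 more with dDAVP, 22 had a lower and 10 a higher fold percentile, and the median log2 ratio was -0.22. Leaving out 1 list gave 32 to 36 genes with a peak and 31 to 34 genes with a called start site in all lists left. Less coverage was found for 19 to 31 genes and more for 1 to 16. A lower percentile was found for 18 to 24 and a higher one for 8 to 15. There were 0 to 26 dDAVP-only and 1 to 27 vehicle-only regions, and median log2 ratios were -0.42 to -0.02. The count of 31 genes with less coverage came without either list of experiment 1, leaving experiment 2 alone. For 16 named genes, 124 of 152 alternative values differed from the main value by less than the SD of its 2 experiments. A further 25 moved by more and 3 reversed. A reversal was counted only where the 2 main ratios of a gene share a sign. Means of genes with main ratios of opposite sign changed sign too, without being counted. Examples are Ncoa3, from -0.31 to 0.48 with equal covered bases, and Sirt6, from 0.02 to -0.24 with a -log10 q of at least 5. The SD of the 2 experiments is wide where they disagree (0.68 at Kat5, 0.01 at Hdac2), so these counts do not measure stability. Alternatives in which a gene lost its ratio were not counted.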
